A study of Mus musculus with 10 samples.

Results

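Hearts of mice from 2 litters were compared across all genes. The sample labels name the litters A and B. Litter A gave 4 of the 10 libraries of the series and litter B the other 6, so the comparison used every library, 1 heart from 1 mouse each. The series was made to ask what a transient loss of SOD2, which removes superoxide inside mitochondria, during development leaves behind in the adult heart. For that, wild-type C57BL/6J females were mated with males that carried the Rosa26-rtTA2 transactivator on both alleles and the TRE-SOD2-shRNA cassette, which sits at the Col1a1 locus, on 1 allele. Doxycycline chow was given from the day of the plug until birth, and hearts were taken at 6 weeks of age. All 10 mice carried 1 copy of the transactivator and were exposed to doxycycline before birth. The 5 control mice (Rosa26-rtTA2+/-;TRE-SOD2-shRNA-/-) had no hairpin and the 5 iSOD2 mice (Rosa26-rtTA2+/-;TRE-SOD2-shRNA+/-) carried 1 copy of it. The transactivator is driven from a broadly active locus, so the knockdown was not limited to heart muscle.

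Litter A held 2 control mice, both male (mice 1 and 2), and 2 iSOD2 mice, 1 male (mouse 7) and 1 female (mouse 8). Litter B held 3 control mice, 1 male (mouse 3) and 2 females (mice 4 and 6), and 3 iSOD2 mice, 1 male (mouse 9) and 2 females (mice 5 and 10). Genotype was thus balanced over the litters and sex was not. The labels do not say whether A and B are 1 litter each. If they are, p-values here measure only the spread between littermates. Litter cannot be told apart from anything else that the mice of a litter share, such as dam, cage, date of dissection or inherited background.

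Littermates share a dam, a uterine environment, a birth date and usually a cage and a day of tissue collection. The mouse heart grows by cell division in the first days after birth, after which most cardiomyocytes leave the cell cycle and growth continues mainly by enlargement of existing cells, while endothelial cells, fibroblasts and immune cells keep some capacity to divide. Genes for mitosis and the replication-dependent histone genes, which are clustered in the genome and read mainly in S phase, therefore fall with age in the heart, and natriuretic peptide and sarcomere stress genes follow the load on the muscle.

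Reads counted over genes, in units of 1000000, came to 21.4 ± 2.35 per library in litter A (SD, n = 4) and 20.6 ± 2.51 in litter B (SD, n = 6), within a range of 16.4 to 24.3, and the litters did not differ in depth (exact permutation p = 0.61, two-sided, litter permuted within genotype) or in the share of aligned reads that fell in genes (exact p = 0.99). Xist was high in the 5 libraries labelled female and low in the 5 labelled male. Sod2 had 10650, 10680, 11305 and 10116 normalized counts in mice 1, 2, 7 and 8 of litter A and 9562 to 11064 in litter B, a difference of -0.00 on the log2 scale (SE 0.05, DESeq2 adjusted p = 0.991). Transcripts of liver type stood apart in some libraries. Alb, which encodes the serum albumin made by hepatocytes, had 47.9, 1607, 3131 and 8766 normalized counts in mice 1, 2, 7 and 8 and 3926 to 14601 in litter B, and the mean log2 level of 25 hepatocyte genes was 6.49 ± 2.26 in litter A (range 3.24 to 8.39, SD, n = 4) and 7.97 ± 0.66 in litter B (range 7.10 to 8.75, SD, n = 6, exact p = 0.02). Without mouse 1 the difference was 0.59 with an exact p of 0.175. The fits were repeated with this level as a covariate, which also differed between litters, and without mouse 1. The named genes held 101 that were called, most of them named by rule and some chosen after their values were seen. Of the 101, 56 lost the call with the covariate and 35 without mouse 1, and in both fits all kept their direction.

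Of 17746 genes fitted with genotype as a covariate, 15670 received an adjusted p in DESeq2. A gene was called at an adjusted p of 0.05 or lower together with a log2 fold change (litter B minus litter A) of more than 0.25 in either direction. By this rule 548 genes (3.5% of those tested) differed between litters, 395 (2.52%) of them higher and 153 (0.976%) lower in litter B. Their median absolute log2 fold change was 0.47, and the 128 past 1 were 115 higher and 13 lower. In 728 of all fitted genes (4.1%) no value of one litter fell within the range of the other. Among the 12151 genes with a mean normalized count of 50 or more, 250 (2.06%) were both called and without overlap, 163 higher and 87 lower in litter B. With sex as a further covariate 461 genes (3.07%) were called, 381 of them among the 548, and 6 of the 548 also differed between females and males in that model. With the hepatocyte level as a covariate 147 were called, of which 142 were among the 548, and without mouse 1 the numbers were 300 and 287.

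**Figure D1:**
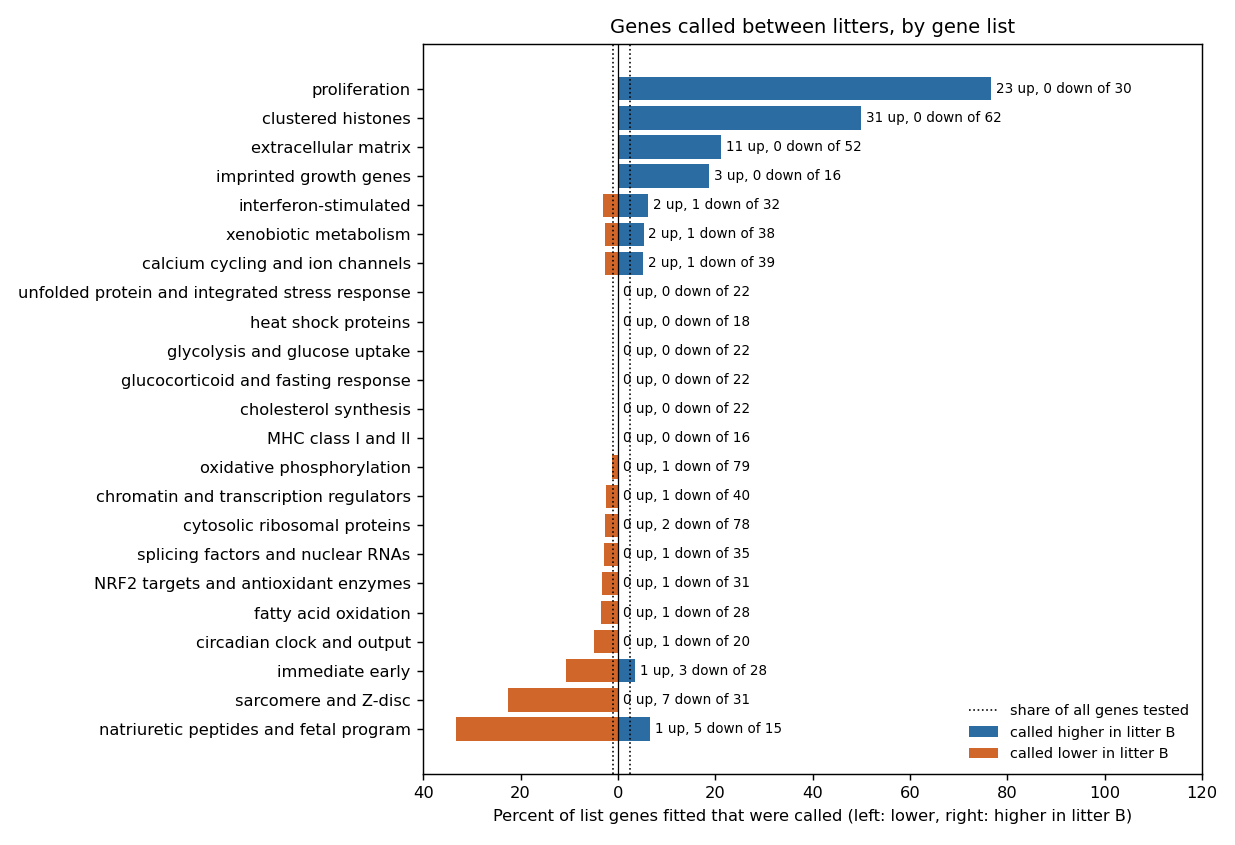
Percent of the fitted genes of each list that were called higher (bars to the right, blue) or lower (bars to the left, orange) in litter B, with the counts written beside each bar and dotted lines at the share of all tested genes (2.52% higher, 0.976% lower). The proliferation list (23 of 30) and the clustered histones (31 of 62) had the longest bars to the right, and the natriuretic and sarcomere lists the longest to the left.

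Cell division genes were higher in litter B. Of 30 measured genes of a proliferation list, 23 rose and none fell, against 2.52% of all tested genes called higher, and the median log2 fold change of the list was 1.06 against a median of -0.00 over all fitted genes. All 30 had a positive log2 fold change, and in 19 the litters did not overlap, against 4.1% of all fitted genes. Mki67, which encodes the Ki-67 antigen of cycling cells (chromosome 7, 135689788 to 135716379), had 258.7, 328.3, 310.8 and 299.8 normalized counts in mice 1, 2, 7 and 8 and a lowest, median and highest value of 466.1, 868.5 and 1312 in litter B. Every heart of litter B exceeded every heart of litter A, and the spread between littermates was wider in litter B. The difference was 1.51 on the log2 scale (SE 0.25, DESeq2 adjusted p = 3.57e-07).

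Top2a, the topoisomerase that untangles chromosomes in mitosis (chromosome 11, 98992947 to 99024189), had 96.8, 128.9, 126.4 and 149.9 normalized counts in litter A and 229.7, 398.7 and 650.8 (lowest, median, highest) in litter B, a difference of 1.72 on the log2 scale (SE 0.29, DESeq2 adjusted p = 5.98e-07). Cdk1, the kinase that drives entry into mitosis (chromosome 10, 69336635 to 69352912), was scarcer, with 20.8, 17.9, 12.4 and 15.9 in litter A and 35.5, 52.6 and 65.2 in litter B (log2 fold change 1.61, SE 0.28, DESeq2 adjusted p = 2.27e-06). Neither gene overlapped between litters. For all 3 genes the highest value of litter B was that of mouse 3 and the lowest that of mouse 5.

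The genes with the largest rises were mostly of the same kind. In the list, Bub1, a kinase of the spindle checkpoint, rose by 1.71 on the log2 scale and Cenpe, a kinetochore motor, by 1.57. Outside the list, but among the 12 largest rises, Tpx2, a spindle assembly factor, rose by 1.51, Knl1, a kinetochore scaffold, by 1.42, Kntc1, part of the kinetochore complex that recruits dynein, by 1.39, Aspm, a protein of the spindle poles, by 1.38, and Iqgap3, a scaffold protein of the IQGAP family, by 1.51. Further members of the list, chosen after their values were seen, were Foxm1, the transcription factor of the mitotic program (1.44), Ect2, which sets up cytokinesis (1.32), and the cyclins Ccnb1 (1.29), Ccnb2 (1.15) and Ccna2 (0.91). The 4 called genes of the replicative helicase had smaller differences, Mcm2 0.43, Mcm3 0.57, Mcm5 0.66 and Mcm6 0.43. Of the 7 members that were not called, the replication and nucleotide genes Pcna (0.18), Tk1 (0.23), Tyms (0.37) and Rrm2 (0.48) had the lowest log2 fold changes, and the mitotic genes Aurka (0.81), Plk1 (1.03) and Ube2c (1.23) missed the threshold with DESeq2 adjusted p of 0.0997, 0.0551 and 0.0553. With sex as a covariate 19 of the 30 were called (median log2 fold change 1.15), without mouse 1 15 (median 1.04), and with the hepatocyte level as a covariate 9 (median 0.90).

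**Figure D2:**
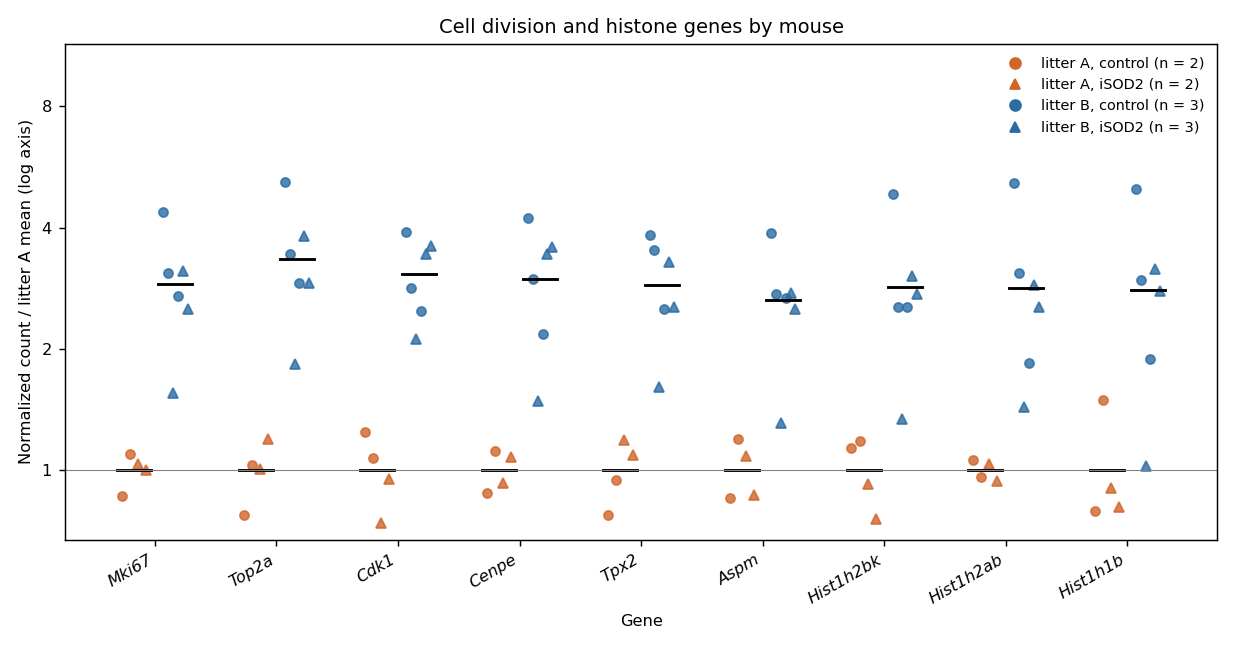
Normalized count of 9 cell division and histone genes in each heart, divided by the mean of litter A (log axis), with litter A in orange, litter B in blue, circles for control and triangles for iSOD2 mice and a black bar at each litter's mean. In Mki67, Top2a, Cdk1, Hist1h2bk and Hist1h2ab each heart of litter B lies above each heart of litter A, and in Hist1h1b the litters overlap.

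The promoters of 3 of these genes are given because many members of the proliferation list share letters there. Called and uncalled members of the list were not compared. The window runs from 250 bases before to 50 after the annotated start, on the gene's own strand, with sequence from RefSeq (GRCm38.p6). Capitals mark CCAAT, the letters of the CCAAT box, or its reverse complement ATTGG, and TTTGAA, the letters of the core of the cell cycle homology region, or its reverse complement TTCAAA. The windows are Top2a at chr11:99024140-99024439, Cdk1 at chr10:69352863-69353162 and Mki67 at chr7:135716330-135716629, all on the minus strand.
Top2a: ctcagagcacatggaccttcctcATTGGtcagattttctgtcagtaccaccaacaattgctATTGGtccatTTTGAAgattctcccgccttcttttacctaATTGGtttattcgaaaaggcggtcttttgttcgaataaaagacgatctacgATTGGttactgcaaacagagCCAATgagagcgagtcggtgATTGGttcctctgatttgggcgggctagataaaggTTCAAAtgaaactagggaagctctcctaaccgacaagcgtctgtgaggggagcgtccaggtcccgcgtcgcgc
Cdk1: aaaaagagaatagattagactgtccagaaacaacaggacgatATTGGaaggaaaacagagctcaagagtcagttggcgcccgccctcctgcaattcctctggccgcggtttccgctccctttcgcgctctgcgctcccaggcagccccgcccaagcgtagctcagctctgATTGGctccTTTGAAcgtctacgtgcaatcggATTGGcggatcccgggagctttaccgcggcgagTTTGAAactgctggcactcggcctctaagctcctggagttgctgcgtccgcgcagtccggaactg
Mki67: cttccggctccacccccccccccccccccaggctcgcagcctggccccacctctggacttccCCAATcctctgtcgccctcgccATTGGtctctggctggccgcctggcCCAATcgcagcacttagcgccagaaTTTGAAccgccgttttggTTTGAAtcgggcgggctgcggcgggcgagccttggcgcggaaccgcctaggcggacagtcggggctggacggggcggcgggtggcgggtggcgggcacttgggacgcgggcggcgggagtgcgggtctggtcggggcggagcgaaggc
Top2a held 6 matches to CCAAT and 2 to TTTGAA, Cdk1 3 and 2, and Mki67 3 and 2, counted on both strands. Of the proliferation genes, 26 had a promoter in the table, and 22 (84.6%) held CCAAT, 14 (53.8%) TTTGAA and 14 (53.8%) both. The same windows of 9650 genes with a mean normalized count of 50 or more held CCAAT in 38.5%, TTTGAA in 11.2% and both in 4.67%. Of the clustered histone genes, 57 were in the table, and 84.2% held CCAAT, 47.4% TTTGAA and 45.6% both. A match describes the letters only and is not evidence of a bound site.

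Replication-dependent histone genes formed the other large group that was higher in litter B. Of 62 measured genes of the histone clusters, 31 rose and none fell, against 2.52% of all tested genes called higher. The median log2 fold change over the 62 was 0.79, with 53 positive values. Hist1h2bk, an H2B gene (chromosome 13, 22035821 to 22036320), had 34.4, 35.8, 28.0 and 22.9 normalized counts in litter A and 40.5, 80.0 and 146.7 (lowest, median, highest) in litter B (log2 fold change 1.50, SE 0.27, DESeq2 adjusted p = 6.36e-06). Hist1h2ab, an H2A gene (chromosome 13, 23751088 to 23751592), had 48.8, 44.2, 47.7 and 43.2 in litter A and 65.9, 124.5 and 237.0 in litter B (1.46, SE 0.26, DESeq2 adjusted p = 7.72e-06). Neither gene overlapped between litters, but over the 62 this held for 9, against 4.1% of all fitted genes. In the others at least 1 heart of litter B lay within the range of litter A or beyond it. The H1 gene Hist1h1b was called with overlap, at a log2 fold change of 1.48 (DESeq2 adjusted p = 0.0108), and the highest log2 fold changes of the group were those of the scarcer genes Hist1h2an (1.94) and Hist1h2bm (1.59).

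Along chromosome 13 the called histone genes followed each other in runs of 13, 3 and 4 genes, the longest over 290.3 kb with log2 fold changes of 0.58 to 1.50. A run was taken as at least 3 neighbouring genes with a mean normalized count of 50 or more, all called in 1 direction. For that reason chromosome 13 had the highest share of called genes, 45 of 619 (7.27%), against 2.47% to 4.44% on the other chromosomes with at least 1 called gene, and without the histone genes its share was 14 of 567 (2.47%). Some histone genes of the longest run overlap in position (Hist1h2bq and Hist1h2br, Hist1h2ao and Hist1h2ap, Hist1h4m and Hist1h4n), so the same reads can enter both counts. Hist1h2bq and Hist1h2br are annotated at the same position. The members of such a pair are not separate observations. Histone messages lack a poly(A) tail, and the libraries were made by depletion of ribosomal RNA, a preparation that keeps them. With sex as a covariate 35 of the 62 were called, by the edgeR quasi-likelihood test 20, without mouse 1 17, and with the hepatocyte level as a covariate 7, with medians of 0.87, 0.79, 0.77 and 0.62 over the 62.

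Some matrix and imprinted growth genes were higher in litter B by smaller steps. Sparc, a secreted collagen-binding glycoprotein (chromosome 11, 55394159 to 55420080), had 8165, 7742, 8032 and 7864 normalized counts in litter A and 10171, 12163 and 13293 (lowest, median, highest) in litter B, a difference of 0.60 on the log2 scale (SE 0.07, DESeq2 adjusted p = 4.75e-15). The 4 hearts of litter A lay close together, and all 6 of litter B were above them. Mest, a paternally expressed imprinted gene that is high in growing fetal tissue (chromosome 6, 30738053 to 30748466), had 235.1, 247.1, 267.3 and 201.1 in litter A and 318.3, 448.9 and 491.9 in litter B, again without overlap (0.86, SE 0.12, DESeq2 adjusted p = 3.15e-10). Igf2, the imprinted fetal growth factor, rose by 0.41 and H19, the imprinted non-coding gene beside it, by 0.40, both calls that were lost with the hepatocyte level as a covariate (DESeq2 adjusted p = 0.0908 and 0.457). Mest, Igf2 and H19 were the 3 called of 16 measured imprinted growth genes, against 3.5% of all tested genes called in either direction. Of the 16, 9 had a negative log2 fold change, and the median was -0.02.

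Of 52 extracellular matrix genes 11 rose and none fell, against 2.52% of all tested genes called higher, with a median log2 fold change of 0.18. Tnc, the matrix glycoprotein tenascin C, rose by 0.56, Col18a1, a basement membrane collagen, by 0.45, and Loxl2, an enzyme that cross-links collagen, by 0.37. The calls of Tnc and Col18a1 were lost by edgeR and without mouse 1, and those of all 3 with the hepatocyte level as a covariate. Acta2, the actin of smooth muscle and of myofibroblasts (chromosome 19, 34240336 to 34255373), had 4730, 3796, 3740 and 3927 normalized counts in litter A and 6108, 8168 and 9445 in litter B (0.96, SE 0.16, DESeq2 adjusted p = 4.50e-07), with every heart of litter B above those of litter A. It was the only one of 11 smooth muscle and pericyte markers to be called, and the summed level of the list overlapped, 75192 to 80525 in litter A and 74044 to 83913 in litter B. With the hepatocyte level as a covariate 2 of the 52 matrix genes were called, and in males alone 22.

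Genes of muscle stress and of the sarcomere were lower in litter B. Of 15 natriuretic peptide and fetal program genes 5 fell and 1 rose, with a median log2 fold change of -0.25, and of 31 sarcomere and Z-disc genes 7 fell and none rose, with a median of -0.17. Acta1, Ankrd1, Myh7, Xirp1 and Xirp2 are on both lists. Over all tested genes 0.976% were called lower. Nppb, which encodes B-type natriuretic peptide, a hormone released by stretched heart muscle (chromosome 4, 147985788 to 147987205), had 1281, 1620, 1055 and 1818 normalized counts in litter A and 554.2, 817.7 and 1034 (lowest, median, highest) in litter B. The litters were separated by the small gap between mouse 7 and the highest heart of litter B (log2 fold change -0.86, SE 0.22, DESeq2 adjusted p = 0.00565), and the call was lost without mouse 1, 2 or 8 and with the hepatocyte level as a covariate, where the log2 fold change was -0.88 (DESeq2 adjusted p = 0.165). Ankrd1, a stress-responsive protein of the sarcomere and nucleus (chromosome 19, 36111965 to 36119844), had 7568, 6716, 6247 and 9979 in litter A and 4091, 4610 and 5765 in litter B, without overlap (-0.65, SE 0.11, DESeq2 adjusted p = 6.09e-07).

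Nppa, the atrial natriuretic peptide gene, had 2071, 1029, 1820 and 7592 normalized counts in litter A and 497.8, 780.5 and 1880 in litter B. The litters overlapped, and the heart of mouse 8 had the highest value of all. The difference of Nppa was -1.53 on the log2 scale (SE 0.50, DESeq2 adjusted p = 0.0493), a call that was lost on leaving out any 1 of 8 of the mice. It was -1.64 in males alone and -1.17 in control mice alone, fits that do not hold mouse 8. With sex as a covariate it was -1.99 (DESeq2 adjusted p = 8.22e-08), and in that model Nppa was also higher in females (1.31, DESeq2 adjusted p = 0.0123). Of the structural genes, Myot, a Z-disc protein (chromosome 18, 44334074 to 44355722), had 343.7, 336.6, 393.7 and 319.2 in litter A and 133.8, 219.2 and 239.8 in litter B (-0.78, SE 0.15, DESeq2 adjusted p = 2.18e-05). Mybpc2, a myosin-binding protein C best known from fast skeletal muscle, fell by 0.78 on the log2 scale, Synpo2l, a Z-disc protein, by 0.56, and Myom2, a protein of the M-band, by 0.46. Mybpc3, the cardiac myosin-binding protein C, fell by 0.26 and was the only one of 11 ventricular cardiomyocyte markers called. Of these 11, 8 had negative log2 fold changes and 3 positive ones, with a median of -0.11. Their summed level was lower in every heart of litter B, 1902766 to 2039778 normalized counts in litter A and 1709440 to 1886667 in litter B. Casq1, the calsequestrin typical of skeletal muscle (chromosome 1, 172209894 to 172219895), had 519.1, 475.1, 545.0 and 661.4 in litter A and 196.1, 249.1 and 360.0 in litter B (-1.06, SE 0.14, DESeq2 adjusted p = 3.22e-11), again without overlap. Of 12 skeletal muscle markers 8 had negative log2 fold changes, with a median of -0.31, and 1 fell, Mylpf, a fast skeletal myosin light chain (-1.32), while the summed level of the list overlapped (51749 to 53618 normalized counts in litter A and 48002 to 55547 in litter B).

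**Figure D3:**
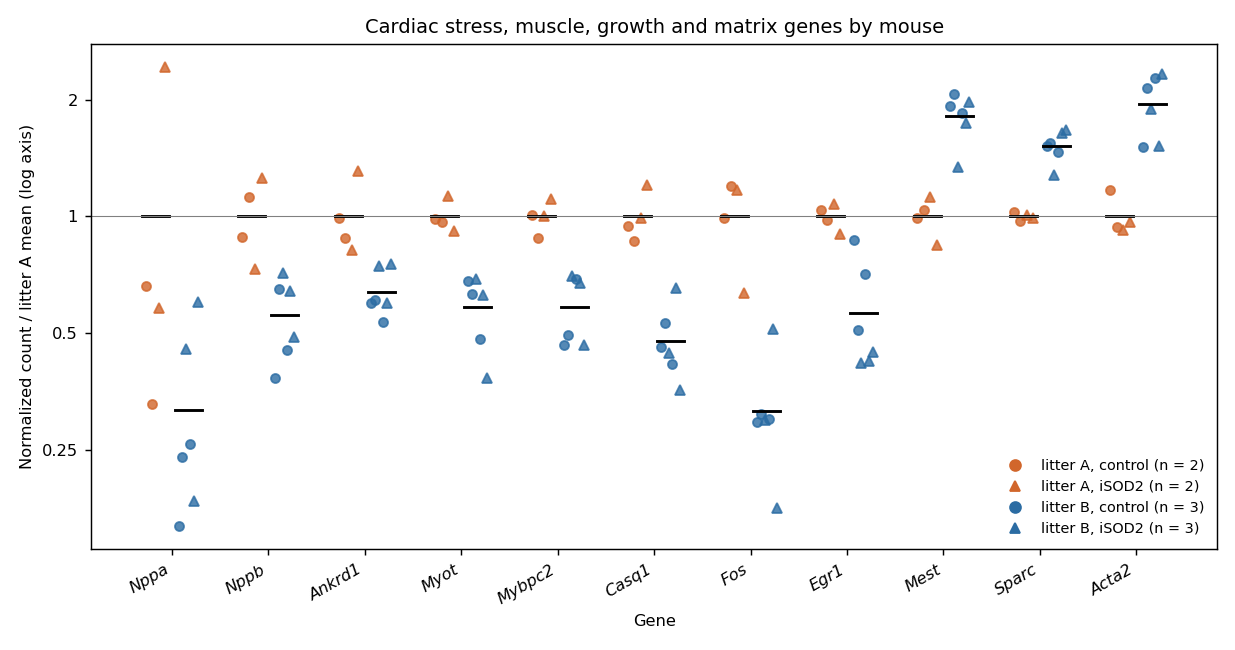
Normalized count of 11 cardiac stress, muscle, early response, growth and matrix genes in each heart, divided by the mean of litter A (log axis), with litter A in orange, litter B in blue, circles for control and triangles for iSOD2 mice and a black bar at each litter's mean. Nppa overlaps and has 1 high heart in litter A (7592 normalized counts), whereas Ankrd1, Myot, Casq1 and Fos are lower and Mest, Sparc and Acta2 higher in every heart of litter B than in any of litter A.

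Fos, the immediate early transcription factor gene (chromosome 12, 85473901 to 85477270), had 126.6, 152.8, 149.2 and 81.1 normalized counts in litter A and 22.6, 38.2 and 65.5 (lowest, median, highest) in litter B, which did not overlap (log2 fold change -1.65, SE 0.25, DESeq2 adjusted p = 1.52e-08). Egr1, another immediate early factor, had 189.0, 177.9, 195.8 and 164.0 in litter A and 76.0, 86.9 and 158.0 in litter B (-0.87, SE 0.17, DESeq2 adjusted p = 2.94e-05), and Junb, a partner of Fos in AP-1, fell by 0.44. These were the 3 that fell of 28 immediate early genes, whose median was -0.20, and Ctgf, a matricellular growth factor gene on the same list, rose by 0.29. Of 20 circadian clock genes 1 fell, Nr1d1, a clock repressor (-0.47), and none rose, with a median of -0.08. Both lists are to be read against 0.976% of all tested genes called lower and 2.52% called higher.

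Among the genes with a mean normalized count of 50 or more that were called without overlap, the largest fall was that of Slc17a7. This gene, which encodes a vesicular glutamate transporter of neurons (chromosome 7, 45163921 to 45176139), had 3778, 3916, 3483 and 3085 normalized counts in litter A and 180.1, 205.2 and 222.9 (lowest, median, highest) in litter B. The 10 hearts fell into 2 narrow groups 17.3-fold apart in their means, with a log2 fold change of -4.11 (SE 0.09, edgeR adjusted p = 7.35e-13). It was the only called gene of 11 neuron markers and made up most of their summed level, 3247 to 4098 in litter A and 338 to 444 in litter B.

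Slc17a7 lies at the end of a run of 9 genes over 113.7 kb (chromosome 7, 45062429 to 45176139), the only run of genes called lower in litter B. The other 8 had values in litter B of 50.7% to 69.6% of those in litter A, with a median of 62.1%, and in none did the litters overlap. Fcgrt, the neonatal Fc receptor that carries IgG, fell by 0.63 on the log2 scale (DESeq2 adjusted p = 4.22e-35), and Rpl13a, a ribosomal protein gene, by 0.62. Nosip, which interacts with nitric oxide synthase, fell by 0.75, Rcn3, a calcium-binding protein of the endoplasmic reticulum, by 0.52, Flt3l, the ligand of the FLT3 receptor, by 0.98, Aldh16a1, of the aldehyde dehydrogenase family, by 0.84, and Pih1d1, a cofactor of the R2TP chaperone complex, by 0.80. Aldh16a1 and Pih1d1 overlap each other, so part of their reads cannot be assigned to 1 of them.

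Genes on either side of the run had smaller differences. Taking the 8 genes other than Slc17a7 as a ratio to the litter B mean, the median per heart was 1.47 to 1.78 in the 4 mice of litter A and 0.917 to 1.05 in the 6 mice of litter B. Within 250 kb on the left, 19 genes with a mean normalized count of 50 or more had a median log2 fold change of -0.10 and 1 was called (Prr12, -0.32, chosen after its values were seen), and the nearest, Prrg2, had -0.20 and was not called. Within 250 kb on the right, 7 such genes had a median of -0.04 and 1 was called, in the opposite direction (Tead2, a TEAD transcription factor, 0.53), with overlap between litters (76.4 to 104.1 normalized counts in litter A and 95.3 to 148.6 in litter B) and with the call kept in 3 of 10 fits that left out a mouse. The 6 scarcer genes inside the run all had negative log2 fold changes, from -0.75 to -0.30, and none was called. Gfy, which starts 210 bases beyond Slc17a7 and is named because of its values, had 34.5 raw counts summed over litter A and 0 over litter B, at least 17.2-fold higher in litter A against a floor of 3 counts over the group, and received no adjusted p. All 9 genes were called lower in litter B with sex or with the hepatocyte level as a covariate, in iSOD2 mice alone, by edgeR and without any 1 mouse, 8 of them in males alone and 7 in control mice alone.

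**Figure D4:**
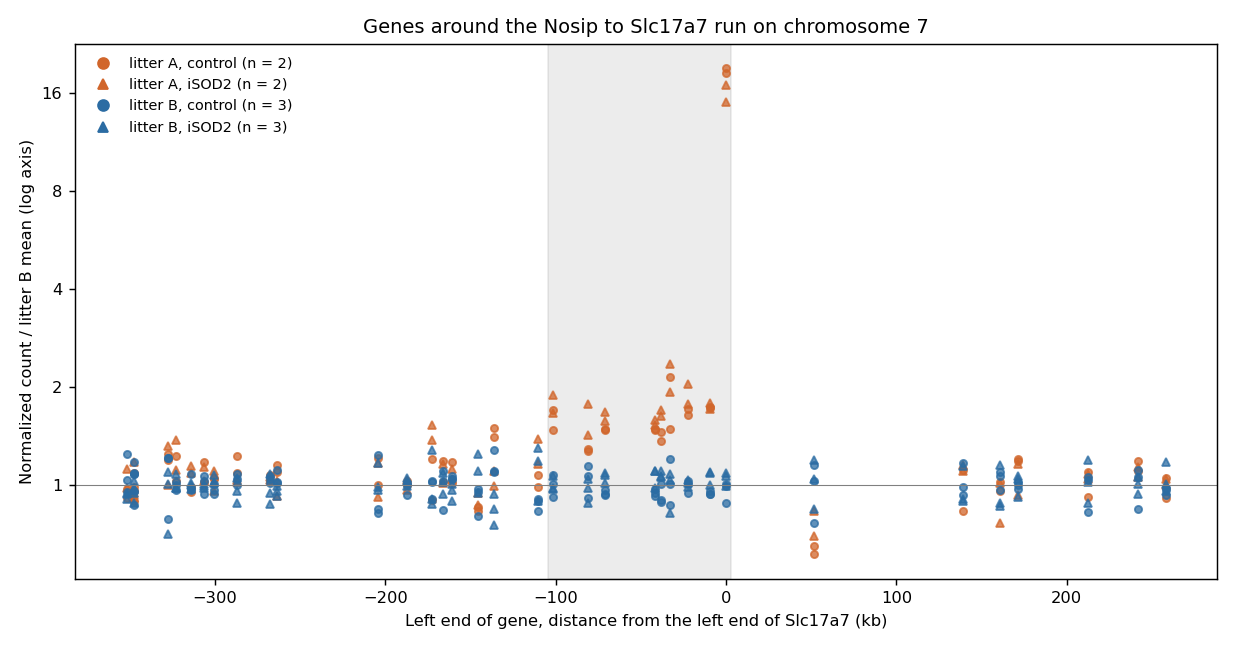
Normalized count of each heart divided by the mean of litter B (log axis) for genes around Slc17a7 with a mean normalized count of 50 or more, against the distance in kilobases of the gene's left end from that of Slc17a7, with litter A in orange, litter B in blue, circles for control and triangles for iSOD2 mice. In the shaded run of 9 genes the hearts of litter A lie above those of litter B, by a mean of 17.3-fold for Slc17a7 and a median of 1.61-fold for the other 8, and in every gene plotted outside it the litters overlap.

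A pair of genes on chromosome 11 had large differences with narrow spread. AA465934, a non-coding transcript (83291699 to 83294637), had 21.7, 26.3, 18.6 and 17.6 normalized counts in litter A and 137.9, 150.9 and 199.3 (lowest, median, highest) in litter B, the largest rise among called genes without overlap and with a mean normalized count of 50 or more (log2 fold change 2.92, SE 0.21, DESeq2 adjusted p = 2.14e-41). Xaf1, an interferon-inducible regulator of apoptosis (72301629 to 72313733), had 117.6, 100.3, 116.0 and 162.3 in litter A and 318.5, 365.2 and 424.2 in litter B (1.57, SE 0.12, DESeq2 adjusted p = 2.60e-34). They lie 10.98 Mb apart, and AA465934 lies 11.64 Mb from Col1a1, the locus of the hairpin cassette. Over the whole of chromosome 11, 52 of 1289 tested genes (4.03%) were called, against 3.5% of all tested genes. On the same chromosome, and chosen after their values were seen, the inflammasome gene Nlrp1b (71153102 to 71230733) and its pseudogene neighbour Nlrp1c-ps fell by 0.88 and 0.81. Rtn4rl1, a Nogo receptor family member (75193993 to 75267762), rose by 0.95. The call of Nlrp1b was lost with sex or the hepatocyte level as a covariate (DESeq2 adjusted p = 0.146 and 0.339), while Nlrp1c-ps and Rtn4rl1 kept theirs. Of 32 genes of an interferon list 2 rose and 1 fell, against 3.5% of all tested genes called in either direction, with a median of 0.13. Ifi27l2a (0.53) and Iigp1 (-0.60) were among those called.

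Other single genes that stood apart were lower in litter B. Cntn5, a neuronal cell adhesion molecule (chromosome 9, 9660891 to 10904775), had 85.0, 75.2, 80.8 and 98.8 normalized counts in litter A and 21.5, 29.5 and 37.1 in litter B, without overlap (log2 fold change -1.52, SE 0.20, DESeq2 adjusted p = 9.37e-11). Klhl34, of the Kelch-like family, fell by 1.03 on the log2 scale, Irs2, an adaptor of the insulin receptor, by 0.88, and the transcript Gm10635 by 0.83. Runs of 4 and 3 genes were higher in litter B. On chromosome 15 these were Ly6e, Ly6a, Ly6c1 and Gpihbp1, members of the Ly6 family that endothelium and blood cells carry on their surface (0.28 to 0.47). Ly6a and Ly6c1 overlapped between litters. With sex as a covariate their calls were lost (0.22 and 0.23, DESeq2 adjusted p = 0.112 and 0.239), while Ly6e and Gpihbp1 kept theirs. On chromosome 1 the genes were 6430706D22Rik, Hjurp and A730008H23Rik (0.30 to 0.34). They overlap one another on the same strand, so the same reads can enter their counts and they are not separate observations.

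Lists of energy metabolism, stress responses and channels are to be read against the same 3.5% of all tested genes called in either direction. Of 79 oxidative phosphorylation genes 1 fell, Cox6a2, the muscle form of a cytochrome c oxidase subunit (-0.28), and none rose, with a median log2 fold change of -0.02. Of 28 fatty acid oxidation genes 1 fell (Slc27a1, a fatty acid transporter, -0.39) and of 31 NRF2 target and antioxidant genes 1 fell (Gpx3, the secreted glutathione peroxidase, -0.30). No gene of the glucocorticoid and fasting (22), heat shock (18), unfolded protein and integrated stress (22), MHC (16), glycolysis (22) or cholesterol synthesis (22) lists was called by DESeq2, with 3, 5, 3, 2, 7 and 4 of them at an unadjusted p under 0.05. Of 39 calcium cycling and ion channel genes, Kcna5, an atrial potassium channel, rose by 0.63 and Gja5, the connexin of conduction tissue and arteries, by 0.38, and Casq1 fell as given above. Of 38 xenobiotic metabolism genes Adh1, an alcohol dehydrogenase, rose by 1.04 and Cyp4b1 by 0.59, and Cyp1b1 fell by 0.65. Polr2a, the large subunit of RNA polymerase II, fell by 0.35 and Cirbp, the cold-inducible RNA-binding protein, by 0.37, each the only call of its list.

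Marker lists of the cell types a heart sample can hold are given next, to be read against the 3.5% of all tested genes called in either direction. In bulk tissue, fewer cells of a type and less RNA per cell cannot be told apart. Of 13 endothelial markers Cdh5, the endothelial cadherin, rose by 0.32 and Esam, an endothelial adhesion molecule, by 0.37, and the summed level of the list was 30724 to 33494 normalized counts in litter A and 33479 to 36621 in litter B. Lyve1 and C1qb rose by 0.57 and 0.30 among 13 macrophage markers, and Col3a1 by 0.32 among 10 fibroblast markers. Neutrophil transcripts were scarce and lower in litter B, 88.6 to 96.7 summed normalized counts in litter A and 34.6 to 75.1 in litter B over 8 markers, of which Csf3r, the G-CSF receptor, was called (-0.79). All 10 erythroid markers had positive log2 fold changes (median 0.47), with no call by DESeq2 and 6 at an unadjusted p under 0.05. Of the hepatocyte markers 24 of 25 were positive (median 1.14), likewise with no call and 4 at an unadjusted p under 0.05. The part of these cell types in the differences above was not tested beyond the hepatocyte covariate.

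The litter difference was then estimated apart in control and in iSOD2 mice, which share no animal. In controls the calls numbered 319 (2.06%), 223 up and 96 down in litter B, and in iSOD2 mice 89 (0.594%), 61 higher and 28 lower. Both control mice of litter A are male, so the control estimate also holds the sex difference, and Xist was among its 319 calls (8.77 in controls, 0.38 in iSOD2 mice). Leaving out 1 control mouse gave 72 (without mouse 1, the heart lowest in liver-type transcripts) to 207 calls. Of the 319, 298 (93.4%) had the same direction in iSOD2 mice, 151 of these at an unadjusted p under 0.05 there, and 40 were called in both. Their median absolute log2 fold change was 0.61 in controls, where they were chosen, and 0.31 in iSOD2 mice. Of the 89, 84 (94.4%) had the same direction in controls, against 63.5% of all 12151 genes with a mean normalized count of 50 or more. For the division genes the estimates in controls and iSOD2 mice were 1.80 and 1.23 for Mki67, 2.10 and 1.37 for Top2a, and 1.40 and 1.84 for Cdk1. In controls 15 of the 30 proliferation genes were called and in iSOD2 mice 3.

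**Figure D5:**
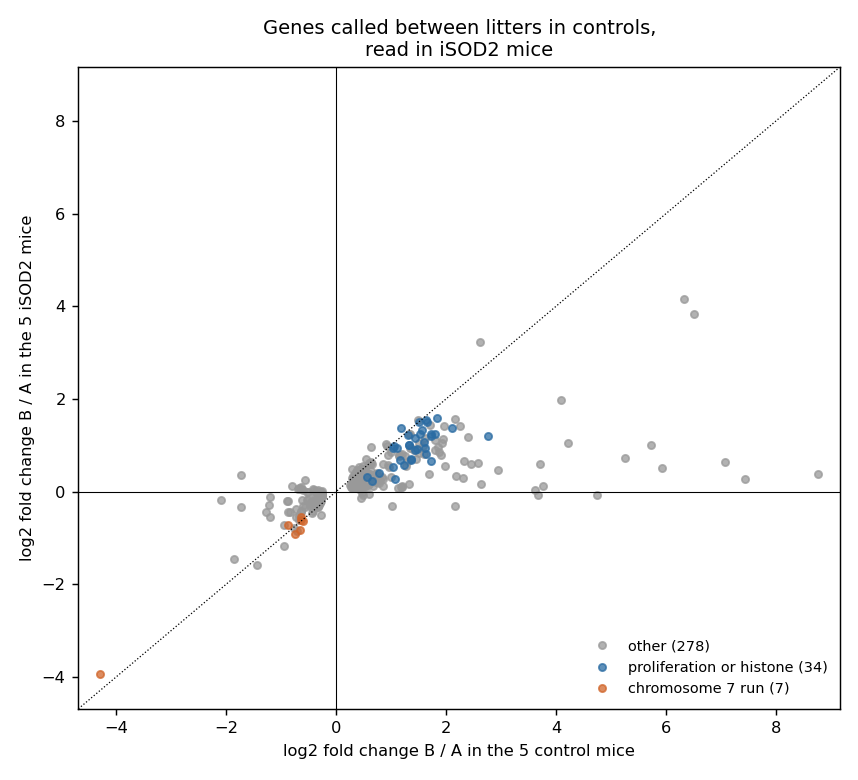
Log2 fold change between litters (B over A) in the 5 iSOD2 mice against that in the 5 control mice for the 319 genes called in controls, with proliferation and histone genes (34) in blue, the chromosome 7 run (7) in orange, other genes (278) in grey and a dotted line of equal values. The genes were chosen by the values on the horizontal axis, and 298 of them have the same direction on both axes.

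A test of the difference between these estimates called 1 of 17739 genes (0.00564%), with 317 at an unadjusted p under 0.05. Wdfy1, which encodes an endosomal protein of Toll-like receptor signalling, had 540.8 and 570.6 normalized counts in the control mice of litter A and 296.3 and 260.1 in its iSOD2 mice, whereas all 6 mice of litter B had 540.3 to 606.9. The litter difference was 0.05 on the log2 scale in controls and 1.05 in iSOD2 mice, and the difference between them was 1.0025 (SE 0.17, DESeq2 adjusted p = 2.74e-05, edgeR 0.0339). Without mouse 8, which left 1 iSOD2 mouse in litter A, it was 0.91 with a DESeq2 adjusted p of 0.105, and without any other mouse 0.96 to 1.10 with adjusted p of 0.000247 to 0.00395.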

How the data were processed

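Hearts of 10 mice aged 6 weeks were sequenced after depletion of ribosomal RNA. The authors trimmed reads with Trim Galore, aligned them to mm10 with STAR and summed them over exons with HOMER, with 1 transcript kept per gene. Their deposited table holds estimated counts in steps of 0.5, which the authors did not normalize, and another unit, the exon length. The counting command stated no strand option, so overlapping genes on opposite strands were not separated.

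Here counts were rounded to whole numbers, genes with fewer than 10 counts over the libraries were left out (17746 of 24537 kept), and litter B was compared with litter A by the Wald test of DESeq2 1.42.0 (R 4.3.3) with genotype as a covariate, the filter and thresholds being those of the study's methods. Normalized counts were divided by median-of-ratios size factors, and fold changes were not shrunken. Depth was 16.4 to 24.3 counts per library in units of 1000000, at which the spread between mice exceeded counting error for all but scarce genes. No library was a copy of another (lowest chi-square per degree of freedom of 45 pairs 5.46). The difference between litters was also fitted in control and iSOD2 mice apart and as an interaction. Single values per library were tested by exact permutation of litter within genotype (100 arrangements, smallest possible p 0.01). Gene positions are those of the deposited table (mm10, counted from 1), and promoter sequences came from RefSeq tables. Tests were checked on simulated counts.

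The groups, 42 gene lists, tests and alternatives were chosen with earlier results of these data known. Lists were typed from general knowledge and are described by counts and medians only. Genes named are the 12 largest rises and 12 largest falls among called genes without overlap and with a mean normalized count of 50 or more, the genes of a run and its neighbours, up to 4 called members of a list, defining markers and check genes. Other genes are said to have been chosen after their values were seen. A gene that the rule names is not reported here. Alternatives were edgeR 4.0.16 quasi-likelihood, other covariates, scaling, filters and thresholds, subsets of mice and leaving out each mouse.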

Additional observations from a re-analysis of the deposited data

Results flagged for a closer look

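In each litter the highest and lowest heart of a gene were compared with the others by Dixon's ratio, over 310 groups of values, of which about 1 in 20 would pass by chance. Of these, 21 passed, and 8 of the 21 were of mouse 3, a male control of litter B. In cell division and histone genes mouse 3 had the highest value of its litter, with normalized counts of 140.4 for Kntc1 (others 60.8 to 81.0), 263.3 for Hist1h2ak (others 54.0 to 126.4) and 558.0 for Hist1h2bg (others 204.4 to 320.9). The same held for Hist1h2bq (369.9) and Hist1h2br (368.6, others 103.9 to 201.7 in both). These are annotated at the same position, so their flags are not separate observations. It also had the highest Txnip, a glucose-responsive regulator of thioredoxin, at 17083 (others 7120 to 10193), and the lowest Kcna5 at 659.5 (others 833.2 to 937.2) and Gpx3 at 1269 (others 1388 to 1436).

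Other hearts of litter B stood apart in AA465934 (mouse 5, 199.3, others 137.9 to 158.5), Klhl34 (mouse 6, 89.0, others 49.9 to 60.8), Sod2 (mouse 6, lowest at 9562, others 10695 to 11064), Napsa, a protease of lung and kidney (mouse 4, 86.9, others 5.02 to 33.9), and the hepatocyte genes Alb (mouse 10, 14601, others 3926 to 7292) and Fgb (mouse 10, 676.8, others 176.1 to 352.2). In litter A these were Nppa (mouse 8, 7592, others 1029 to 2071), B2m, the light chain of MHC class I (mouse 8, 2158, others 1900 to 1917), Gpihbp1 (mouse 7, 1012, others 776.0 to 802.2), Hist1h1b (mouse 2, 106.2, others 56.1 to 64.2), Hist1h2bf (mouse 2, 50.1, others 24.7 to 28.9), Hist1h3i (mouse 7, 94.3, others 78.5 to 81.2) and Hist1h2bj (mouse 1, 56.1, others 41.4 to 43.0).

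The litter difference of Wdfy1 was the only one that differed between genotypes in the interaction test, by 1.0025 on the log2 scale (DESeq2 adjusted p = 2.74e-05), with both iSOD2 mice of litter A below the other 8 hearts. Without mouse 8 the difference was 0.91 and the adjusted p 0.105.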

How the results depend on the processing

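Of 548 genes called between litters, the count was 147 with the hepatocyte level as a covariate, 262 in males alone (267 with no genotype term), 319 in controls alone, 89 in iSOD2 mice alone, 365 by edgeR and 128 past an absolute log2 fold change of 1. Leaving out each mouse gave 300 (without mouse 1) to 705 (without mouse 5). With no covariate, sex, TMM, the exon length trend removed, other count filters, robust edgeR or no threshold on the fold change it stayed within 1.5 times. The 319 calls in controls became 72 to 207, the 89 in iSOD2 mice 23 to 150, and the 1 interaction call 0 (without mouse 8) to 37 (without mouse 2) on leaving out a mouse. The 6 runs became 30 when 2 neighbours sufficed, 8 at a mean of at least 10 and 2 (without mouse 1) to 8 without a mouse.

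Of the lists, the 23 proliferation calls became 9 with the hepatocyte covariate, 13 in males (15 with no genotype term), 15 in controls, 3 in iSOD2 mice, 14 at a mean of at least 50 and 15 to 24 without a mouse. The 31 histone calls became 7, 19 in controls, 4 in iSOD2 mice, 20 by edgeR (12 robust) and 17 to 41. The 11 matrix calls became 6 with no covariate, 2 with the hepatocyte covariate, 22 in males, 1 in iSOD2 mice, 5 by edgeR (7 robust) and 4 to 18. The 6 natriuretic calls became 3 with the hepatocyte covariate, 1 in iSOD2 mice, 3 by robust edgeR and 4 to 7. The 7 sarcomere calls became 1 in iSOD2 mice and 5 to 10. The 4 immediate early calls became 2 with the hepatocyte covariate, in males and by edgeR (2 robust), 1 in iSOD2 mice and 2 to 9. Where mice were left out, fewer samples entered the fit, and the cause of the other changes was not tested.

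Of 155 genes named, 101 were called, and over 23 settings none of 2309 comparisons reversed and 511 lost the call, 69 of them in iSOD2 mice alone and 56 with the hepatocyte covariate. No paired analysis was possible because replicate numbers only name the mice. With 2 control and 2 iSOD2 mice in litter A and sex unbalanced, the litter difference cannot be told apart from what else the litters differed in, and counting error is largest for scarce genes such as Cdk1.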

Other observations

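Transcripts of kidney type were present in some hearts. Kap, Slc34a1 and Mep1a, genes known from the kidney proximal tubule and chosen after their values were seen, had 0 normalized counts in mice 1, 2 and 7 of litter A and were highest in mouse 4 of litter B. Genes of class II antigen presentation, also chosen after their values were seen, did not pass the interaction test, Cd74 at a DESeq2 adjusted p of 0.0588 and H2-Aa at 0.118. In control mice alone both were called lower in litter B, Cd74 at -0.57 and H2-Aa at -0.81 on the log2 scale (DESeq2 adjusted p = 0.000222 and 2.4e-05). Of 16 MHC genes 4 were called lower there, against 2.06% of all genes tested in controls called in either direction. In iSOD2 mice the values of Cd74 and H2-Aa were 0.24 and 0.13 without a call. Of the first 3 principal components of the 500 most variable genes, the exact permutation p for litter was 0.04, 0.43 and 0.01, unadjusted. On the last of these the litters overlapped in part, from -5.70 to 1.11 in litter A and from -1.24 to 4.62 in litter B (12.2% of the variance), and its p is the smallest that 100 arrangements allow.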
